A study of Sus scrofa with 8 samples.

Results

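The nuclear genes of oxidative phosphorylation were described in pig embryonic fibroblasts (PEFs) by the peaks of H3K4me3, H3K27ac and CTCF at their transcription start sites (TSSs, the annotated gene starts). Fold enrichment is the signal at a peak over its background as the peak caller gave it. The members were the protein-coding RefSeq genes of the pig genome build Sscrofa11.1 whose symbols start with NDUF, UQCR, ATP5 or COX4 to COX8, together with SDHA, SDHB, SDHC and SDHD. There were 78 of them among 19487 protein-coding genes on chromosomes 1 to 18 and X. RefSeq lists CYC1 and several other subunits under locus or older names in its annotation release 106, so 19 further genes were taken by product name or older symbol (for example UQCRC1, UQCRFS1, CYC1, COX4I1, COX5A and COX8A) and were counted apart. The annotation keeps older names for complex V, so ATP5A1, ATP5B and ATP5G1 to ATP5G3 stand for the genes now called ATP5F1A, ATP5F1B and ATP5MC1 to ATP5MC3.

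The cells were fibroblasts from 35-day-old Large White fetuses, kept in culture with no treatment, and ChIP-seq was carried out on 2 replicates for each of the 3 targets. Nothing in the labels says that the replicates came from separate fetuses or cultures, so the spread between them may be technical. The promoters of 13 of 13 fibroblast marker genes carried both histone marks in both replicates. None of 4 endothelial marker genes and none of 5 epithelial marker genes carried H3K27ac, whereas 2 of 4 blood, 1 of 3 neural and 2 of 7 muscle marker genes did in both replicates. The epithelial genes did carry H3K4me3, 5 of 5, as did 4 of 7 muscle genes. The read depth behind a peak was not used here, and fold enrichments were compared only within a library, since H3K4me3 folds at genes marked in both replicates were lower in replicate 2, with a median ratio of 0.499 to replicate 1.

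Oxidative phosphorylation couples the oxidation of NADH and succinate to ATP synthesis in the inner mitochondrial membrane. Complex I (NADH dehydrogenase) and complex II (succinate dehydrogenase) feed electrons to complex III (cytochrome bc1), complex IV (cytochrome c oxidase) reduces oxygen, and complex V (ATP synthase) uses the proton gradient. Nearly all subunits are nuclear-encoded and are transcribed in most cells, with ETS-family factors such as GABPA, NRF1, YY1 and the oestrogen-related receptors (ERRs) known to act at their promoters. Some complex IV subunits also have a second gene that is used mainly in heart, skeletal muscle, testis or hypoxic tissue. H3K4me3 marks promoters, H3K27ac marks active promoters and enhancers, and CTCF is an insulator protein that binds DNA directly.

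The promoters of 6 genes are shown because the contrasts described here turn on them. They come from the Sscrofa11.1 genome, 250 bases before to 50 bases after the annotated TSS, 5′ to 3′ on the strand of the gene. Capitals mark motif letters on either strand. The ETS letters are CCGGAAG and the NRF1 letters are GCGCNTGCG, where N is any base. The YY1 letters are AAGATGGC, the ERR letters are AAGGTCA and those of a TATA box are TATAAA. The letters CNAGGNGGC are a part of the CTCF motif. COX8A (chr2:8103264-8103563, minus strand) is the widely expressed form of the smallest complex IV subunit and COX8H (chr2:70681-70980, minus strand) its heart and muscle form. COX7A2 (chr1:90696496-90696795, plus strand) and COX7A1 (chr6:45520672-45520971, minus strand) are the widely expressed and the heart and muscle forms of another. COX5B (chr3:56632058-56632357, minus strand) had the highest H3K4me3 fold of complex IV in both replicates, and NDUFC1 (chr8:87695023-87695322, plus strand) the highest CTCF fold of all members in both.
COX8A: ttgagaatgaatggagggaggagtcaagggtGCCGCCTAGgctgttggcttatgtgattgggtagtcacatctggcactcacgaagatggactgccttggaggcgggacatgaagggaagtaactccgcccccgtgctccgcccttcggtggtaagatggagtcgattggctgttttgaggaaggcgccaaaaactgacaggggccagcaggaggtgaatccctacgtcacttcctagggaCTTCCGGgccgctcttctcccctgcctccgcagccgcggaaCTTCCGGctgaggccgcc
COX8H: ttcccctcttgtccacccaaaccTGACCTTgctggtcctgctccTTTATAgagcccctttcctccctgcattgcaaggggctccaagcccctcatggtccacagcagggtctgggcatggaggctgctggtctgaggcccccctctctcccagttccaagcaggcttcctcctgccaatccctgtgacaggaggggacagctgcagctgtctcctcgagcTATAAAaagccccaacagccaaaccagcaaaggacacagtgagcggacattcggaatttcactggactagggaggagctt
COX7A2: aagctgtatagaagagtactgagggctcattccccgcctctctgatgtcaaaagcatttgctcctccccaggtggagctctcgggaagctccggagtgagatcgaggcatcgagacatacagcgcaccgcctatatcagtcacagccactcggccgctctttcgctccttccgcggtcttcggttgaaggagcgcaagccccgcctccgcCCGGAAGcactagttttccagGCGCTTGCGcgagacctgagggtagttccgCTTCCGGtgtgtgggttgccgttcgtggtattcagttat
COX7A1: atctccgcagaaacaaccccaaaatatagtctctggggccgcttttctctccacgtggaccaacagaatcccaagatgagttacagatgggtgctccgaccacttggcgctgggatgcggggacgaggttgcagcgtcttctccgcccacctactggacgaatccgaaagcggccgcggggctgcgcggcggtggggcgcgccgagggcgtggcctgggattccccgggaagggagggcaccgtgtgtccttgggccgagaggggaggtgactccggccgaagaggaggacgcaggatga
COX5B: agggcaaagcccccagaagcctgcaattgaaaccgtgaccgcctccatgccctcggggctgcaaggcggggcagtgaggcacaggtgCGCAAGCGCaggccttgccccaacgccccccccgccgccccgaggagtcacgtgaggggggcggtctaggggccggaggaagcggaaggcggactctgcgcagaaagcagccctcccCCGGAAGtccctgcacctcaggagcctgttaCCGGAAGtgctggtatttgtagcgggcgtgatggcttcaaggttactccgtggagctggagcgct
NDUFC1: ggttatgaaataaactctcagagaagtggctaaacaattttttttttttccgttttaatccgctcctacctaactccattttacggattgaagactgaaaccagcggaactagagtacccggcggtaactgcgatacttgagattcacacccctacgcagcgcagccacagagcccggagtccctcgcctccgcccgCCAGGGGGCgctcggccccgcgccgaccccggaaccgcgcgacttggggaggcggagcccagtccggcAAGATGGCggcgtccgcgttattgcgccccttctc
COX8A, COX5B and COX7A2 each held 2 ETS words, and COX5B and COX7A2 each held an NRF1 word as well. COX8A also held a CTCF word, starting 219 bases before the TSS. No letters of these motifs occurred in the COX7A1 window. COX8H held a TATA word starting 30 bases before the TSS and another at 206 bases, and its ratio of observed to expected CpG was 0.122 against 0.644 for COX8A. In NDUFC1 the CTCF word began 53 bases before the TSS, and the YY1 word 15 bases after it.

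Nearly every member was marked at its start. An H3K4me3 peak lay within 1 kb of the TSS in both replicates for 77 of the 78 members (98.7%), against 68.9% of all protein-coding genes. The same 77 members had an H3K27ac peak in both replicates, against 60.7% of all genes, and 58.9% of all genes had both marks in both replicates. The exception was COX8H, which had no peak of any target. All 75 members other than the tissue-restricted genes COX7A1, COX8H and NDUFA4L2 carried both histone marks in both replicates, and 17 of the 19 genes taken by product or older symbol did. The 2 without them, COX7B2 and COX8C, are known mainly from testis. A share this high was common to housekeeping families: 95.1% of 82 cytosolic ribosomal protein genes and 92.3% of 39 proteasome subunit genes had H3K4me3 in both replicates, and 96.3% and 92.3% had H3K27ac. In each H3K4me3 library all 77 marked members had a single peak within reach of the TSS. So did 13456 of 13563 protein-coding genes with a peak in replicate 1 and 13458 of 13567 in replicate 2.

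The height of H3K4me3 at the members lay above the middle of all genes. The fold enrichment of the strongest peak had a median of 58.4 over members in replicate 1 and 31.3 in replicate 2, where all protein-coding genes with a peak had medians of 52.0 and 25.2. The median member stood at percentile 63.5 of all genes with a peak in replicate 1 and at percentile 74.4 in replicate 2. In replicate 1, 34 of 77 members were in the top 25% of all genes, and in replicate 2, 38 were. Proteasome genes had median percentiles of 61.8 and 73.7, and ribosomal protein genes 55.5 and 71.2. For H3K27ac the members were close to the middle, with median folds of 17.4 and 20.9 against 16.4 and 19.2 for all genes and median percentiles of 53.8 and 56.0. Ribosomal protein genes stood higher in H3K27ac, at percentiles 75 and 77.5. Across the 77 members the replicates ordered the genes alike, with Spearman's rho of 0.774 for H3K4me3 and 0.903 for H3K27ac. Over all protein-coding genes with peaks these were 0.746 and 0.939. Between H3K4me3 and H3K27ac, rho over members was 0.295 and 0.304 in the 2 replicates, against 0.351 and 0.47 over all protein-coding genes. These are correlations across genes, which share a library and are not replicates.

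**Figure D1:**
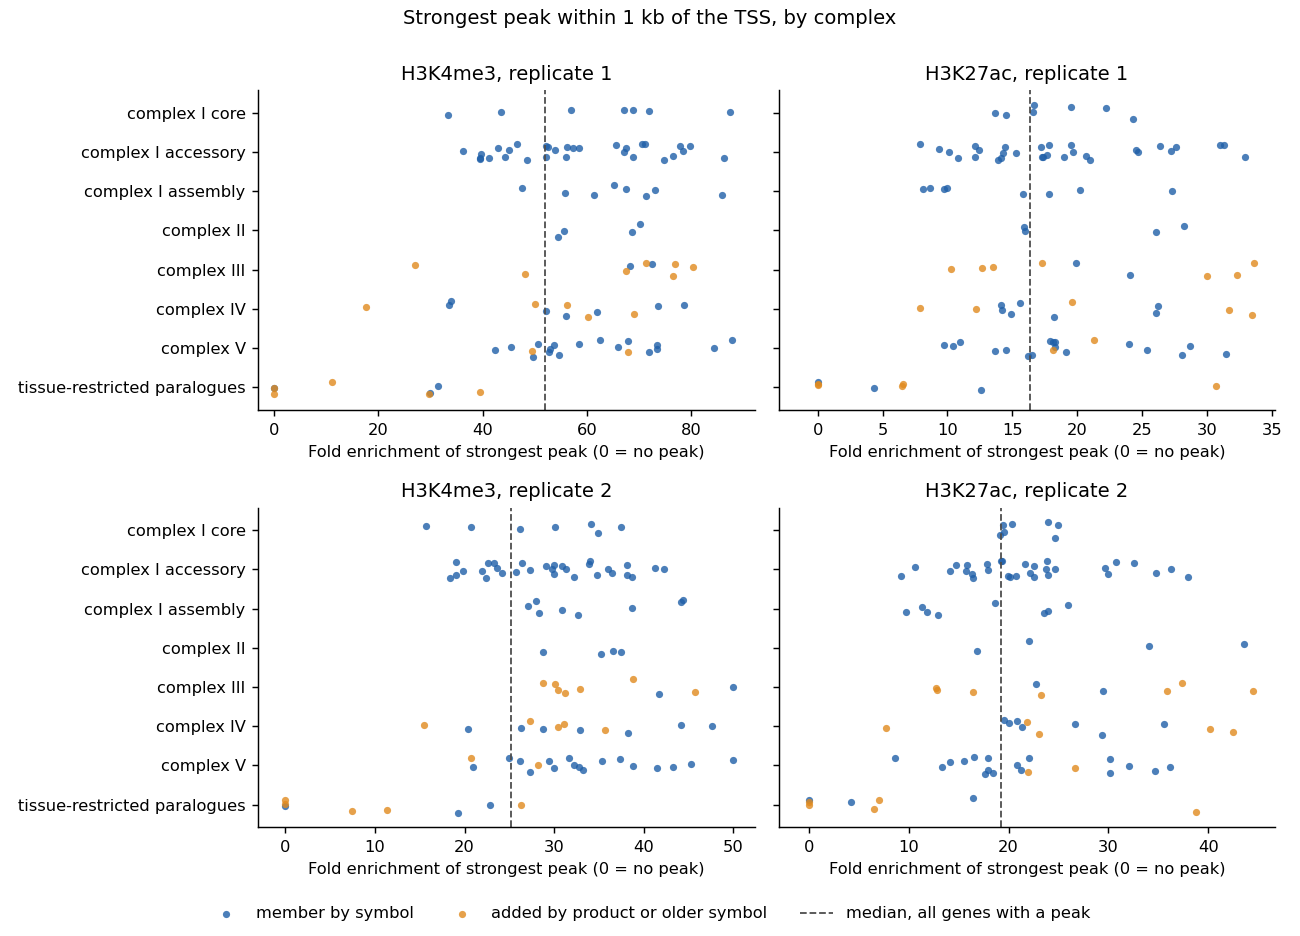
Fold enrichment of the strongest H3K4me3 (left) or H3K27ac (right) peak within 1 kb of the TSS, replicate 1 above and replicate 2 below, with each point a gene, grouped by complex (horizontal axis linear, 0 means no peak). Blue points are members by symbol, orange points are genes added by product or older symbol, and the dashed line is the median of all protein-coding genes with a peak. Every gene outside the bottom group has a point above 0 in all 4 panels, and 3 of the 8 tissue-restricted paralogues lie at 0.

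In complex I, all 7 core subunits, 30 accessory subunits and 8 assembly factors carried both histone marks. NDUFV1, which binds NADH, had H3K4me3 folds of 87.5 and 34.1 in replicates 1 and 2 and H3K27ac folds of 13.7 and 20.4. NDUFS1, the largest iron-sulphur subunit, had H3K4me3 folds of 56.9 and 34.9 and H3K27ac folds of 24.3 and 24.7. The assembly factors had the lowest median H3K27ac folds of the groups outside the paralogues, 12.9 and 15.8, while their median H3K4me3 folds were 66.3 and 31.8. NDUFAF4, for example, had H3K4me3 folds of 61.3 and 32.7 beside H3K27ac folds of 8.13 and 11.3. Among accessory subunits, NDUFA10 and NDUFB1 were among the 3 highest members in H3K27ac. NDUFA10 reached 31.3 and 38.0, and NDUFB1 reached 32.9 and 34.8. NDUFA3 was among the 3 lowest members in H3K27ac, at 7.86 and 10.6, although its H3K4me3 folds were 79.8 and 30. Peaks of both histone marks also covered the start of CPSF2 at NDUFB1, OSCAR at NDUFA3, EEF1B2 at NDUFS1 and LOC110259233 at NDUFV1.

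All 4 subunits of complex II were marked. SDHA, the flavoprotein that oxidises succinate, had H3K4me3 folds of 70.1 and 28.7 and H3K27ac folds of 26.1 and 34.1. SDHB, the iron-sulphur subunit, had H3K4me3 folds of 68.6 and 35.2 and H3K27ac folds of 15.9 and 22.1. SDHC, a membrane anchor, had the highest mean H3K27ac fold of all members, 35.9 ± 10.9 (SD, n = 2), from 28.2 in replicate 1 and 43.6 in replicate 2. It was highest in replicate 2, whereas in replicate 1 NDUFB1, among others, was higher. SDHD, the other anchor, was lower in H3K27ac in both replicates, at 16 and 16.8. The anchors were closer in H3K4me3, with 55.5 and 37.5 for SDHC and 54.4 and 36.6 for SDHD. The histone peaks also covered the start of CCDC127 at SDHA and of TIMM8B at SDHD.

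In complex III, the 2 members by symbol and the 7 added genes all carried both histone marks. UQCRB reached an H3K4me3 fold of 49.9 in replicate 2 and 68.2 in replicate 1. The core protein UQCRC1 had H3K4me3 folds of 76.8 and 32.9, and the haem protein CYC1 had 48.1 and 28.8. UQCRFS1, the Rieske iron-sulphur protein, departed from the general ratio between the libraries, with an H3K4me3 fold of 27.1 in replicate 1 and 30.4 in replicate 2. Its H3K27ac folds were 13.5 and 12.8. In complex IV all 12 widely expressed subunits carried both marks. COX5B had H3K4me3 folds of 78.5 and 47.6, among the 3 highest members, and COX5A had 60.1 and 35.7. COX4I1, a structural subunit, shared its promoter with EMC8, whose TSS lies 11 bp away on the other strand, and had H3K27ac folds of 33.5 and 40.2. COX7A2 was among the 3 lowest members in H3K4me3, at 34 and 20.4. The X-linked COX7B was lower still, at 17.6 and 15.5, and the other X-linked genes, NDUFA1 (39.4 and 19) and NDUFB11 (39.7 and 19.8), also lay under the all-gene medians in both replicates. The H3K4me3 peaks also covered the start of RNF113A at NDUFA1 and of RBM10 at NDUFB11. The part of X linkage in the values of these X-linked genes was not tested.

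Complex V contained 17 members, ATP5S and ATP5SL among them. Those 2 are now called DMAC2L and DMAC2, and were grouped here by the ATP5 prefix alone. DMAC2 is known as a complex I assembly factor. ATP5J2 had the highest H3K4me3 fold of all members in replicate 1, 87.8, but not in replicate 2, where its 45.3 was under UQCRB and ATP5SL (both 49.9) and COX5B (47.6). ATP5D, a subunit of the rotor stalk, had 84.4 and 43.3. The catalytic core genes were near the all-gene median of 52.0 in replicate 1 and above that of 25.2 in replicate 2. ATP5A1 had H3K4me3 folds of 50.6 and 32.2, and ATP5B had 54.6 and 33.2. The 3 genes of subunit c, which forms the rotor ring, were all marked. ATP5G1 had H3K4me3 folds of 58.4 and 32.8, ATP5G2 had 62.5 and 41.5, and ATP5G3 had 52.7 and 30. In H3K27ac, ATP5G2 was the highest of them in both replicates, 24.0 and 30.2, against 13.7 and 14.1 for ATP5G1 and 16.5 and 21.3 for ATP5G3. ATP5SL was among the 3 lowest members in H3K27ac, at 9.74 and 8.59, with H3K4me3 folds of 73.5 and 49.9. ATP5J shared a peak with GABPA, the gene of the ETS-family factor named above, so both genes had the same H3K4me3 folds, 49.6 and 31.6, and the same H3K27ac folds, 31.5 and 32.1.

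The tissue-restricted paralogues split into marked and unmarked genes. Of the 8, with COX7A1, COX8H and NDUFA4L2 members by symbol and COX4I2, COX6A2, COX6B2, COX7B2 and COX8C added, 5 had both histone marks in both replicates, and 3 had neither in any library. The share of marked genes, 5 of 8, was near the 58.9% of all protein-coding genes. COX8H had its nearest H3K4me3 peak 14.2 and 14.1 kb away in the 2 replicates, and COX8C had its own 19.7 and 19.4 kb away. COX7B2 had an H3K4me3 peak no closer than 85.3 kb in replicate 1 and 14.4 kb in replicate 2. Their partners COX8A (H3K4me3 56.2 and 30.4) and COX7B were marked in both replicates.

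Of the marked paralogues, COX7A1 and COX6A2 had the start of another gene under their peaks. COX7A1 had H3K4me3 folds of 31.5 and 22.8, beside 34 and 20.4 for COX7A2, so the order of the pair differed between replicates. Its H3K27ac folds of 12.6 and 16.4 were under those of COX7A2, 14.2 and 20.9, in both. The COX7A1 peaks covered the start of ZNF146, 164 bp away on the other strand, and cannot be told apart from peaks of that gene. COX6A2 had H3K4me3 folds of 39.5 and 26.3, under the 52.2 and 28.7 of COX6A1, and H3K27ac folds of 30.7 and 38.8, above the 14.1 and 21.4 of COX6A1. Here too the peaks covered another start, that of ARMC5 at 100 bp, and a transcript start annotated 4736 bp into the COX6A2 gene had a separate H3K4me3 peak of 59.5 and 34.3, above COX6A1 in both replicates. COX4I2 and COX6B2 had no other start under their peaks. COX4I2, the lung and hypoxia form of COX4, had H3K4me3 folds of 29.7 and 11.3 and H3K27ac folds of 6.50 and 7.06, all under the COX4I1 values of 50.1, 27.3, 33.5 and 40.2. COX6B2, the testis form, had H3K4me3 folds of 11.2 and 7.45 and H3K27ac folds of 6.59 and 6.55. Its partner COX6B had 56.0, 32.9, 18.2 and 20. The H3K4me3 peaks of COX6B2 did not reach the TSS itself, ending 95 and 174 bp from it.

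NDUFA4L2, the hypoxia-inducible relative of NDUFA4, was marked unevenly. Its H3K4me3 folds were 30 and 19.3, against 33.6 and 26.3 for NDUFA4. The value was the lowest of the 77 marked members in replicate 1 but not in replicate 2, where NDUFV3, among others, was lower at 18.4. Its H3K27ac folds were 4.31 and 4.20, the lowest of the marked members in both replicates, against 14.9 and 19.5. A second annotated transcript start, 5757 bp further into the gene, had lower H3K4me3 folds than the gene start, 14.5 and 7.64, and higher H3K27ac folds, 25.5 and 30.6, which were above those of NDUFA4. The low H3K27ac values were those of the upstream start. That start also lay beside a CTCF peak with folds of 28.0 and 31.3.

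**Figure D2:**
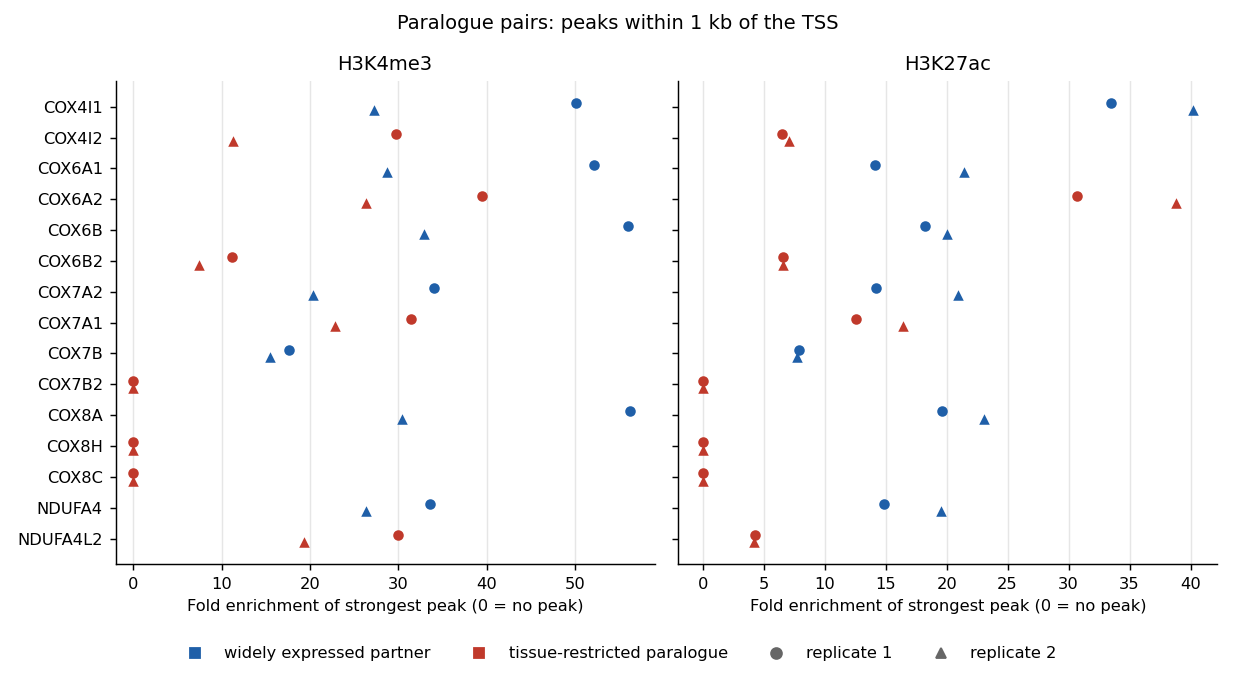
Fold enrichment of the strongest H3K4me3 (left) and H3K27ac (right) peak at the widely expressed partners (blue) and tissue-restricted paralogues (red), with circles for replicate 1, triangles for replicate 2, and 0 for no peak (horizontal axes linear). COX7B2, COX8H and COX8C lie at 0 in both panels, NDUFA4L2 at 4.31 and 4.20 in H3K27ac, and COX6A2 lies above COX6A1 in H3K27ac.

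Peaks at the members had ordinary widths. The median H3K4me3 width was 2754 and 2957 bp in replicates 1 and 2, against 2740 and 2902 bp for all genes with a peak, and ribosomal protein genes had 3999 and 4268 bp. H3K27ac had medians of 2448 and 2371 bp, against 2441 and 2421 bp. The widest H3K4me3 peaks were at NDUFB10 (6514 and 6663 bp), NDUFAF3 (5872 and 6431 bp) and NDUFB3 (4324 and 5376 bp). All 3 covered starts of other genes: RNF151 and RPL3L at NDUFB10, DALRD3 and the microRNA genes MIR191 and MIR425 at NDUFAF3, and FAM126B at NDUFB3. The narrowest were at NDUFA12 (1467 and 1636 bp), NDUFA4L2 (1774 and 1650 bp) and NDUFA3 (1899 and 1781 bp). The NDUFA12 peaks were narrow but high, with folds of 78.4 and 38.7.

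Shared promoters were common. Of the 78 members, 24 (30.8%) had another gene starting within 1 kb upstream on the other strand, at a median distance of 84 bp. Among all protein-coding genes the share was 11.8%, and among the 11476 genes with both histone marks it was 18.5%. Ribosomal protein genes (28.0%) and proteasome genes (28.2%) had shares close to that of the members. The partners included EEF1B2 at 88 bp from NDUFS1, TIMM8B, a mitochondrial import gene, at 91 bp from SDHD, and the mitochondrial ribosomal gene MRPL47 at 23 bp from NDUFB5. NDUFA2 and IK started 8 bp apart. Counting starts in any orientation, the strongest H3K4me3 peak covered the start of another gene at 36 of 77 members in replicate 1 and 37 in replicate 2 (46.8% and 48.1%), against 28.0% and 28.3% of all genes with a peak. Such a peak gives the same value to each gene it covers. Members with a divergent neighbour had median H3K4me3 folds of 65.4 and 32.4, and those without had 57.4 and 31.3. All protein-coding genes showed the same order, 57.2 and 28.9 with such a neighbour and 50.8 and 24.3 without. In H3K27ac the order of the members was the other way, 17.2 and 19.1 with a neighbour and 17.4 and 21.4 without, whereas all genes had 18.5 and 21.8 with and 15.9 and 18.5 without.

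Histone peaks at most members were highest downstream of the TSS, and most CTCF peaks upstream. The summit of the strongest H3K4me3 peak was downstream at 62 of 77 members in replicate 1 and 63 in replicate 2 (80.5% and 81.8%), with median positions of 293 and 446 bp. All genes had 81.8% and 79.0% downstream, at medians of 339 and 477 bp. H3K27ac summits were downstream at 53 and 61 of 77 members (68.8% and 79.2%), against 71% and 72.5% of all genes, with medians of 222 and 248 bp against 283 and 263 bp. Complex V gene ATP5G2 had its H3K4me3 summits far inside, at 1752 and 1905 bp, and its H3K27ac summits at 1851 and 1831 bp. At NDUFB10 the replicates placed the H3K4me3 summit 4264 and 572 bp downstream in the 2 libraries, although the peaks were of similar width.

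**Figure D3:**
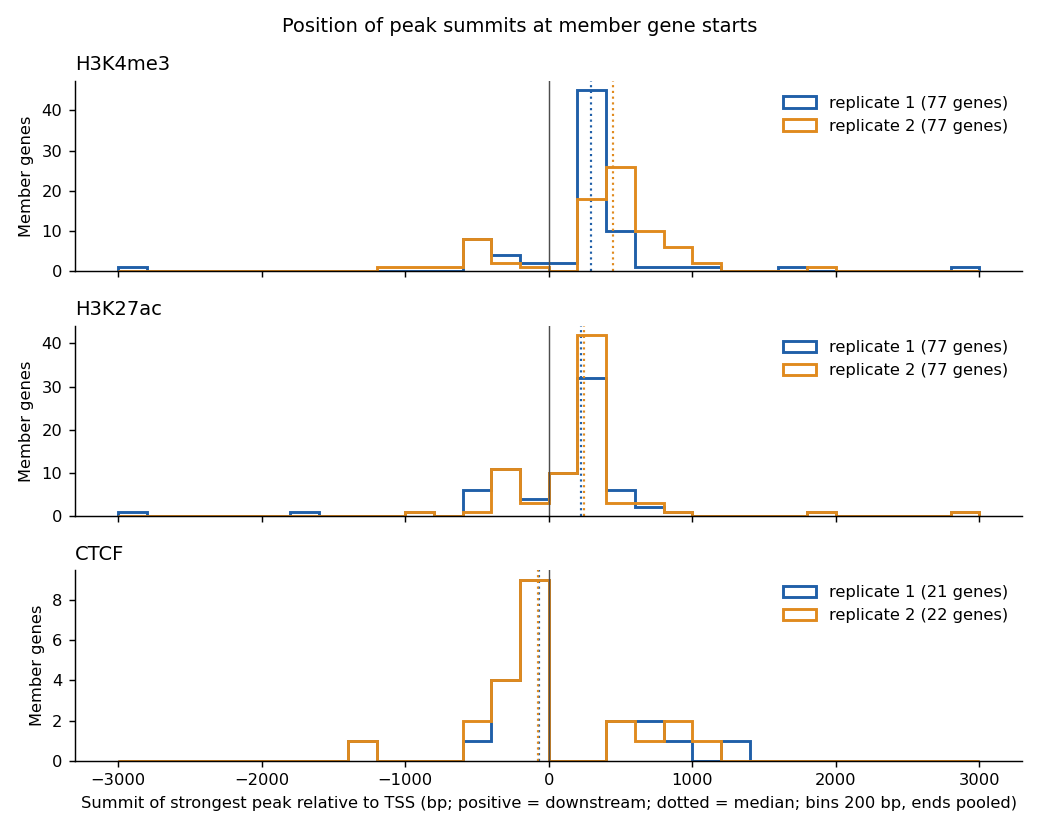
Number of member genes (vertical axis) by position of the summit of the strongest peak relative to the TSS in bp (horizontal axis, 200-bp bins, positive is downstream, values past either end pooled into the end bins), for H3K4me3, H3K27ac and CTCF, with replicate 1 in blue, replicate 2 in orange and dotted medians. Histone summits gather at medians of 222 to 446 bp downstream and CTCF summits at medians of 71 and 77 bp upstream.

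CTCF was found at a minority of the members. A CTCF peak lay within 1 kb of the TSS in both replicates for 20 of 78 members (25.6%), against 17.9% of all genes. All 20 also had both histone marks in both replicates, so 25.6% of members had all 3 targets, against 14.4% of all genes. Among genes with both histone marks the shares were close, 20 of 77 members (26%) against 24.5% of 11476 genes. CTCF was present in both replicates at 35.4% of ribosomal protein genes and 25.6% of proteasome genes. NDUFS7, SDHB and SDHD had a CTCF peak in 1 replicate, with folds of 3.38, 4.96 and 7.26. By complex, 5 of the 8 complex I assembly factors had CTCF in both replicates, as did 1 of 7 core and 7 of 30 accessory subunits of complex I, 1 of 4 complex II genes and 4 of 17 complex V members. In complex III it was 1 of 2 members, and 5 of 9 with the added genes. None of the 12 widely expressed complex IV subunits did, although COX4I1 and COX8A had peaks of 4.34 and 6.90 in replicate 2.

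The CTCF peaks at members had median folds of 22.7 and 27.3, against 17.2 and 16.8 for all genes with a CTCF peak. Ribosomal protein genes had similar medians, 23.2 and 26.2, and proteasome genes had 17.3 and 18.8. The summit was upstream at 15 of 21 and 16 of 22 members, with medians of -71 and -77 bp. Over all genes with a CTCF peak it was upstream at 2037 of 3578 and 2379 of 4375, with medians of -50.5 and -37 bp. In ribosomal protein genes it was upstream at 20 of 29 and 24 of 35, and in proteasome genes at 7 of 11 and 8 of 13. NDUFC1, an accessory subunit of complex I, was highest, at 41.9 and 39.4, with summits 48 and 52 bp upstream, beside the capitals starting at 53 bp in its sequence. NDUFAF4 followed with 37.2 and 36.8, but with summits at -1341 and -1320 bp. NDUFAB1, the mitochondrial acyl carrier protein, had 35.6 and 35.8, and ATP5I had 31.4 and 34. UQCRB had 27.5 and 35.3 with summits 814 and 816 bp downstream. NDUFAF1 (24.0 and 38.3), NDUFA6 (24.8 and 35.4), NDUFAF3 (25.3 and 34.4), NDUFA4L2 and NDUFAF6 (20.3 and 28.9) completed the 10 highest. Among the members with a peak in both replicates, the lowest were NDUFA13 (8.23 and 9.12), ATP5G3 (8.73 and 10.9) and NDUFAF2 (10.5 and 12.1). Of the added genes, UQCRC1 had CTCF folds of 32.4 and 43.8.

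**Figure D4:**
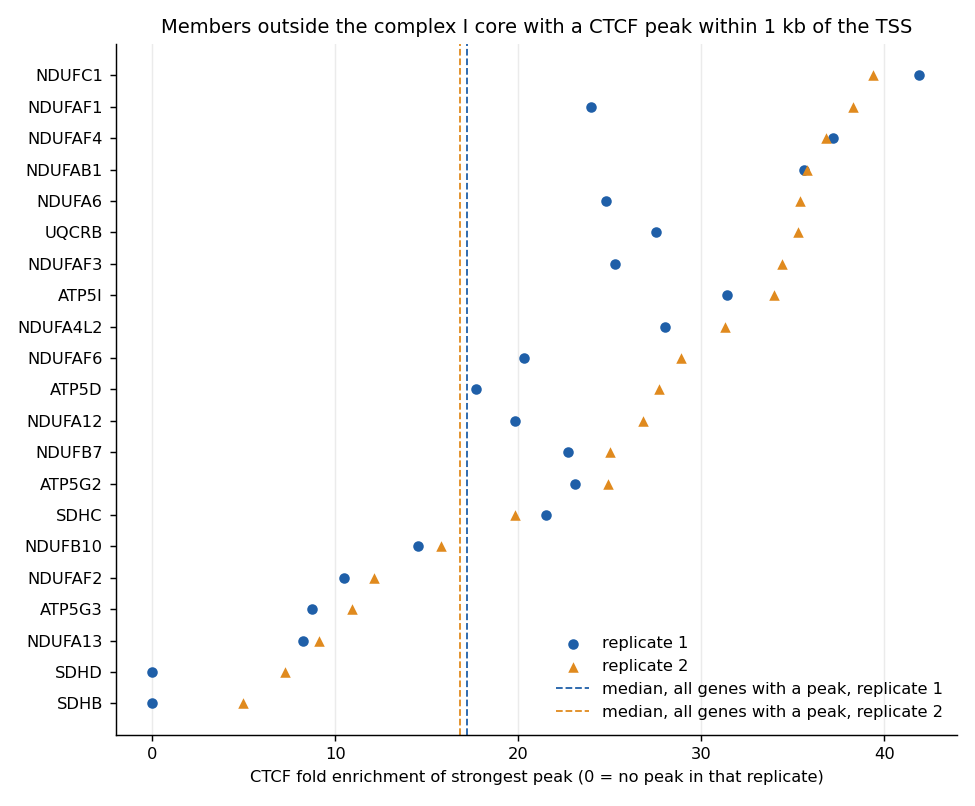
CTCF fold enrichment (horizontal axis, linear) of the strongest peak within 1 kb of the TSS at the 21 members outside the complex I core with a CTCF peak in at least 1 replicate, with circles for replicate 1, triangles for replicate 2, 0 for no peak in that replicate, and dashed lines at the medians of all genes with a CTCF peak (17.2 and 16.8). NDUFC1 is at the top with 41.9 and 39.4, and SDHD and SDHB have a peak in 1 replicate.

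The letters CNAGGNGGC lay within 50 bp of the summit at 4 of 21 member peaks in replicate 1 and 5 of 22 in replicate 2. Among all CTCF peaks the shares were 16.8% and 16.6%, so these fixed letters were absent beside most summits. NDUFC1, NDUFA4L2 and ATP5I were among the members with the letters in both replicates.

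The promoters of the members, 250 bases before to 50 after the TSS, were compared with all promoters of the same length by motif letters on both strands. ETS letters occurred in 18 members (23.1%), against 11.0% of all genes and 17.0% of genes with both histone marks. NRF1 letters occurred in 15 (19.2%), against 8.41% and 13.0%. YY1 letters occurred in 9 (11.5%), against 2.48% and 3.59%, and ERR letters in 13 (16.7%), against 3.79% and 3.16%. At least 1 of these 4 words was in 37 members (47.4%), against 22.5% and 31.7%, and the share was 46.3% in ribosomal protein genes and 48.7% in proteasome genes. Ribosomal protein genes had ETS letters in 34.1% and proteasome genes in 38.5%, but ERR letters in 3.66% and 2.56% and YY1 letters in 2.44% and 5.13%. With 500 bases on each side of the TSS, YY1 letters were in 24.4% of members and 25.6% of proteasome genes. SP1 letters (GGGCGG) were in 61.5% of members, against 50.7% of all genes and 67.2% of genes with both marks. The letters CCAAT were in 34.6%, against 35.3% and 35.9%, and the CRE letters TGACGTCA in 2.56%, against 2.26% and 3.31%. TATAAA was in 5.13%, against 10.8% and 6.69%, and the CTCF letters were in 17.9%, against 11.3% and 14%. With 500 bases on each side, CTCF letters were in 33.3% of members, against 29.6% and 35.4%. In that window the genes with both marks were highest. A match is a run of letters and was not shown to be bound.

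**Figure D5:**
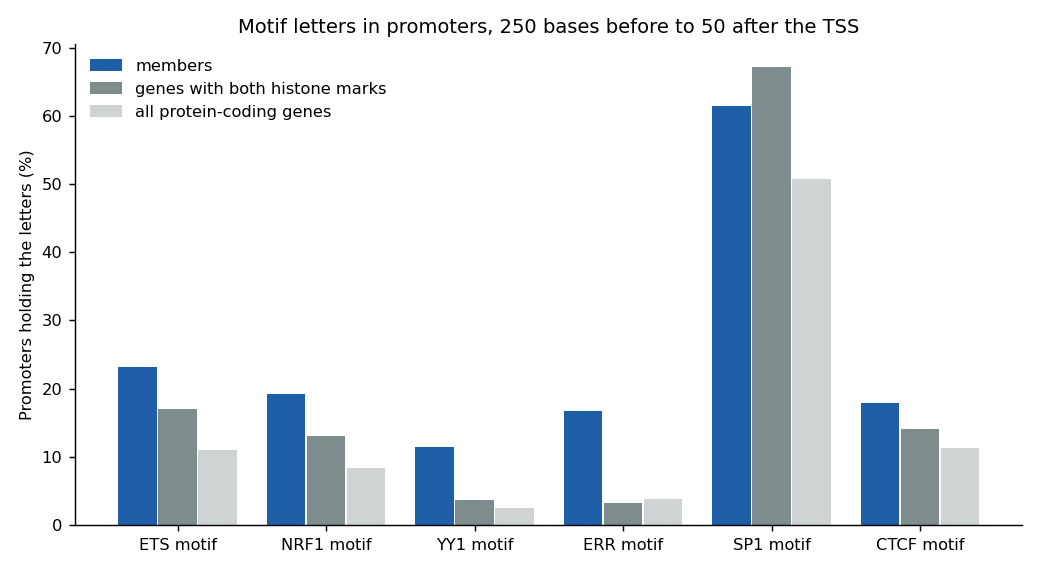
Share of promoters (vertical axis, percent, from 0) holding the letters of each motif on either strand, 250 bases before to 50 after the TSS, for the 78 members (blue), the 11476 genes with both histone marks (dark grey) and all 19487 protein-coding genes (light grey). In this window members exceed both other sets for ETS, NRF1, YY1, ERR and CTCF letters, with ERR at 16.7% against 3.16% and 3.79%. For SP1 the genes with both marks are highest. With 500 bases on each side they are highest for CTCF letters too, at 35.4% against 33.3% of members.

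The ERR letters were in ATP5A1 (2 matches, 244 and 38 bases before the TSS), ATP5E, ATP5G1, ATP5G3, ATP5I, COX6C, COX7C, COX8H, NDUFAF8, NDUFB4, NDUFS6, SDHB and SDHD, which makes 5 complex V members. They were thus also in the unmarked COX8H. YY1 letters started 1 base after the TSS in NDUFB8, 13 in ATP5O, 14 in NDUFA6, 15 in NDUFC1 and 37 in NDUFAF8. In ATP5H, NDUFA9, NDUFB3 and SDHD they started before it. ATP5H, NDUFA9 and SDHD held YY1 letters together with ETS letters, and the share of all promoters with both was not counted. The median ratio of observed to expected CpG was 0.825 in members, 0.650 in all promoters and 0.792 in genes with both marks. A CpG-rich rule (ratio of at least 0.6 and GC over 50%) was met by 82.1% of members, against 50.6% and 72.5%. Ribosomal protein and proteasome genes had median ratios of 0.833 and 0.774, and 68.3% and 66.7% met the rule. With 500 bases on each side of the TSS, 85.4% of ribosomal protein genes, 76.9% of proteasome genes and 84.6% of members met it. Median GC content was 58.7% in members and in all genes and 63% in genes with both marks. ATP5J2, with the highest H3K4me3 fold in replicate 1, had a CpG ratio of 0.434, below the median of the members.

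Other genes of the pathway were listed outside the symbol rule. Of 60 listed assembly factors, regulators and cytochrome c, 55 were found in the annotation. All 55 had H3K4me3 in both replicates, 53 had H3K27ac and 15 (27.3%) had CTCF, where the shares of all genes were 68.9%, 60.7% and 17.9%. For CTCF, 24.5% of the genes with both histone marks had a peak. CYCS, which carries electrons from complex III to complex IV, had H3K4me3 folds of 56.2 and 40 and H3K27ac folds of 46.5 and 44.8. The assembly factors of complexes II, III, IV and V were marked by both histone marks at 3 of 3, 5 of 5, 22 of 22 and 4 of 4 genes. Of 13 regulators, 11 had H3K27ac in both replicates. ESRRG, an ERR gene, had H3K4me3 folds of 29.2 and 19.5, from peaks on opposite sides of the TSS, and no H3K27ac peak, while ESRRA had H3K27ac folds of 12.2 and 12.7. GABPB1 had an H3K27ac peak of 34 in replicate 1 and none within 1 kb in replicate 2. The co-activator genes PPARGC1A and PPARGC1B, which drive mitochondrial biogenesis in muscle and brown fat, had H3K4me3 folds of 63.1 and 29.8 and of 59.8 and 23.9. Their H3K27ac folds were low, 5.65 and 5.74 for PPARGC1A and 5.18 and 5.26 for PPARGC1B, whereas the NRF1 gene had 33.6 and 35.6.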

How the data were processed

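ChIP-seq libraries of PEFs (H3K4me3, H3K27ac and CTCF, 2 replicates each) were analysed from the 6 peak lists. Reads were mapped by the authors with bowtie2 to Sscrofa11.1, filtered to uniquely mapped fragments, cleared of duplicates with Picard, and narrow peaks were called per library with MACS2; versions are not given in the sources used here. Per line, the deposited files give a position, a score and a summit. They also give the fold enrichment, a ratio to background that the authors took from MACS2 with no further scaling stated. The deposited significance is a −log10 p-value and a −log10 q-value. The score and the p-values were not used. The values of 1 member gene are not reported here, though it is included in the counts and medians. Between 0.056% and 3.06% of deposited peaks per library had a −log10 q-value under 2. No peak ran past a chromosome end of the reference. Between 435 and 633 peaks per library lay outside chromosomes 1 to 18 and X and were left out.

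The TSS was the annotated gene start (RefSeq release 106). A peak was assigned if any part lay within 1 kb, and the strongest by fold gave fold, width and summit. Percentiles were taken within a library over genes with a peak. No test was run: counts and medians stand beside those of all protein-coding genes. The depth is not known from the peak lists, so no counting interval is given. Groups came from the sample labels. Members and gene lists were chosen with earlier results of these data known. Named genes were the paralogues and partners, unmarked members, the 3 highest and lowest members per mark by the mean fold of both replicates (which weights the library with larger folds more), the 3 widest and narrowest H3K4me3 peaks, the 10 highest CTCF members and a short list of core subunits; other genes were chosen after their values were seen. Peak assignment was tested on simulated data with 2000 genes, all placed correctly (100%). The assignment of a peak that covers the starts of several genes was not tested. Alternatives were windows of 0 bp and 5 kb, summits within 1 kb, any transcript start, the widest peak, −log10 q-values of at least 2 and 5, a longer promoter, and each replicate alone. Python 3.11.15, pandas 2.3.3, numpy 2.4.6 and matplotlib 3.10.9 were used.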

Additional observations from a re-analysis of the deposited data

How the results depend on the processing

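Of 122 alternative counts and medians over sets of genes, 113 stayed within the limits set (1.5 times a count, or 1 SD between replicates for a median) and 9 moved, and no median changed sign. A further 18 medians with a replicate left out cannot pass that SD limit and show nothing of stability. H3K4me3 fold, for example, went from a mean of 44.9 to 31.3 or 58.4. Some of the 122 could hardly move either. Each marked member had a single H3K4me3 peak within reach, so the widest peak was also the strongest. For H3K4me3 fold the limit was an SD of 19.2 around 44.9. The 113 are therefore not a measure of stability. For single genes, taking any transcript start put NDUFA4L2 above NDUFA4 in H3K27ac (25.5 and 30.6) and COX6A2 above COX6A1 in H3K4me3 (59.5 and 34.3), the reverse of the order at the gene start. With the peak required to cover the TSS (0 bp), 77 members kept H3K4me3, 75 had H3K27ac and 14 had CTCF in both replicates; 3 of the 8 paralogues, in place of 5, had H3K27ac, members with CTCF in at least 1 replicate went from 23 to 15, and other pathway genes with CTCF from 15 to 6. At 5 kb the latter rose to 24 and the median H3K27ac width fell from 2410 to 2328 bp. With any transcript start the median H3K27ac summit moved from 235 to 206 bp. In the longer promoter (500 bases on each side) ETS, YY1 and ERR letters were in 31, 19 and 29 members, beside 20.4%, 6.79% and 12.7% of all genes, and YY1 letters were in 25.6% of proteasome genes against 24.4% of members; the window is longer, so more matches arise by construction. Leaving out replicate 1 or 2 gave 22 and 21 members with CTCF, and 77 with each histone mark. No paired analysis was possible because no result comes from a test.

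Limits: the fold depends on antibody, control and depth, so levels were not compared between targets. Peak presence is not transcription, and no RNA was measured in these libraries. A peak over several starts cannot be assigned to a single gene. NDUFA4L2 and COX6A2 have further annotated starts with peaks of their own. With 2 replicates the SD is imprecise.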
